A study of Mus musculus with 8 samples.

Results

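The genes described here encode 10 secreted growth factors and receptors of signalling between mesenchyme, epithelium and blood vessels. They are the PDGF ligands Pdgfa, Pdgfb, Pdgfc and Pdgfd, the receptors Pdgfra and Pdgfrb, the vascular growth factors Vegfa, Vegfb and Vegfc, and the angiopoietin Angpt1. They were taken by gene symbol from a table of 31607 genes. Each symbol occurs there once, and all 10 passed the authors' limit on low values. They were measured by bulk RNA sequencing of lung mesenchyme from adult mice. HhipCKO mice are labelled UBCcreER/Myh11creER/Hhipflox/flox: floxed alleles of Hhip with tamoxifen-activated drivers, of which UBCcreER is active in most cells and Myh11creER in smooth muscle. The labels do not say whether each mouse carried both drivers. Control mice carried the same floxed alleles (Hhipflox/flox) with no driver, and mice of both groups received tamoxifen. Each group has 4 libraries of live cells sorted for the absence of CD45, CD31 and Epcam, although the extraction protocol speaks of cultured cells. The labels do not say how many animals went into a library, so the p-values measure the spread between these libraries only.

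Hhip is a membrane protein that captures hedgehog ligands. PDGF ligands are paired chains that bring receptor chains together at the cell surface. PDGF-A signals through the alpha receptor, PDGF-B through both receptors, and PDGF-C and PDGF-D are secreted as latent forms that proteases must cut. In the lung, PDGF-A made by epithelium acts on fibroblasts that carry the alpha receptor, while PDGF-B from endothelium recruits pericytes that carry the beta receptor. In the other direction, mesenchymal VEGF ligands and angiopoietin 1 act on receptors of blood and lymphatic endothelium.

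The question was whether transcription of these signals differed between HhipCKO and Control mesenchyme. None of the 10 passed an adjusted p of 0.05, whereas the authors' deposited table calls 6.98% of its 17469 tested genes (3.06% higher and 3.92% lower). None reached an unadjusted p of 0.05 either, against 21.8% of all tested genes. Of 116 tested genes from lists around these signals (processing, receptors, transducers, feedback, hypoxia regulators and hypoxia targets), 7 fell and none rose. That share of 6.03% lies near the 6.98% called in either direction over all tested genes, and above the 3.92% that were lower. With a trend on transcript length removed, 2 of the 7 remained, Adamts3, a protease that activates VEGF-C, and Arnt, the partner of the hypoxia-inducible factors. With Wald statistics divided by their robust SD none remained, a setting under which 18 of the 1219 calls over all genes were left. The call of the hedgehog target Ptch1 was lost under it too, while that of Hhip remained.

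Promoter sequences are shown for the most abundant receptor and the most abundant VEGF ligand among the 10, Pdgfra and Vegfa, and for the partner genes Adamts3 and Arnt, chosen after their values were seen because their fall remained with a length trend removed. Each is the 250 bases before the RefSeq start site on GRCm38.p6, written 5′ to 3′ on the gene's strand. Capitals mark matches on either strand to the GC box GGGCGG, which reads CCGCCC on the other strand, and to ACGTG, a form of the hypoxia response core. Other forms of that core were not searched.
Pdgfra (chr5:75152001-75152250, plus strand): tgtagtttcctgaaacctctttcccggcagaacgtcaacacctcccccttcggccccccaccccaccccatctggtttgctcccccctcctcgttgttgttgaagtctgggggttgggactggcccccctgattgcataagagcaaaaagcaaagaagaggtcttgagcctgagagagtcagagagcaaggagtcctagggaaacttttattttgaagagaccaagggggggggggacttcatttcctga
Vegfa (chr17:46032378-46032627, minus strand): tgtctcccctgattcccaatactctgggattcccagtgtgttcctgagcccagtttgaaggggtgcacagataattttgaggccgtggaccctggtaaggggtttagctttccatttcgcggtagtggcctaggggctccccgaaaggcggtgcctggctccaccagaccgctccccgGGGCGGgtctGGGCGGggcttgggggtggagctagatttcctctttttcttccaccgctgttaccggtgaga
Adamts3 (chr5:89883335-89883584, minus strand): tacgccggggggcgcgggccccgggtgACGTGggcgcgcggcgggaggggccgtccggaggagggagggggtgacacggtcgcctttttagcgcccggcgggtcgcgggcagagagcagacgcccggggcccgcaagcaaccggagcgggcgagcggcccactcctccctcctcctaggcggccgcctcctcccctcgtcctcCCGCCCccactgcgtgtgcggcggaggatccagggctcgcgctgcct
Arnt (chr3:95434140-95434389, plus strand): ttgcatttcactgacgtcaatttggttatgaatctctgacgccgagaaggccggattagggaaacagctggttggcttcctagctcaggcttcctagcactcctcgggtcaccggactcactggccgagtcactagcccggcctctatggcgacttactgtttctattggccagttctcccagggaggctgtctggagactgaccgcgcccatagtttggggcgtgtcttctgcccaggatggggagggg

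The Vegfa window, at the first of its listed start sites, held GC boxes starting at -72 and -62 from the start site. The window of a second Vegfa start site, which is not shown, held 1 GC box and 1 ACGTG core. The Adamts3 window held 1 GC box at -47 and an ACGTG core at -223. Neither set of letters occurs in the Pdgfra or Arnt window. Of 32851 windows of this length over all genes outside chromosome 18, 32.7% held the GC box and 16.6% the ACGTG core. Windows were at hand for 7 of the 10 genes, namely Pdgfa, Pdgfc, Pdgfd, Pdgfra, Vegfa, Vegfb and Vegfc. The letters GACCACCCA, the consensus of the hedgehog-responsive Gli factors, occur in none of those 7, and in 0.225% of all windows. The TATA letters TATAAA occur in the window of Pdgfd alone among the 7, and in 12.4% of all windows.

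All fold changes, errors and p-values below come from the authors' deposited table of 1 comparison, which holds no value per library, so levels in single libraries and overlap between the groups are not given. Hhip itself was 6.15-fold lower in HhipCKO there (95% interval 3.99 to 9.49), and Ptch1, a hedgehog target, was 2.53-fold higher (1.66 to 3.85). The mean normalized counts sum to 128669692 over all genes. Of the genes called at an adjusted p of 0.05, 534 rose and 685 fell.

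The 10 genes were expressed at very different levels. To compare genes, the mean normalized count over all 8 libraries was divided by the length of the longest annotated transcript. On this scale Pdgfra stood at 32303 counts per kilobase, rank 193 among tested genes. Vegfa, Pdgfrb and Angpt1 followed at 9225, 8360 and 6636 counts per kilobase. Pdgfa and Vegfb were intermediate, at 2935 and 2257 counts per kilobase. Vegfc, Pdgfd, Pdgfb and Pdgfc were the lowest, at 903, 788, 404 and 272 counts per kilobase. The range from Pdgfra to Pdgfc thus spans ranks 193 to 11505.

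The spread between libraries that each SE implies gives an approximate error for neighbours in this order. Vegfa exceeded Pdgfrb by 1.10-fold (approximate 95% range 0.903 to 1.35) and Vegfc exceeded Pdgfd by 1.15-fold (0.950 to 1.39), which are differences within that spread. The other neighbours differed beyond it, from Pdgfra over Vegfa at 3.50-fold (2.85 to 4.31) down to Pdgfrb over Angpt1 at 1.26-fold (1.03 to 1.54). These ranges treat the genes of a pair as independent, although both were measured in the same libraries, so a close pair is not settled by them. Per kilobase of coding sequence Angpt1 stood above Pdgfrb and Pdgfd above Vegfc, so the order of those pairs depends on the length used.

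**Figure D1:**
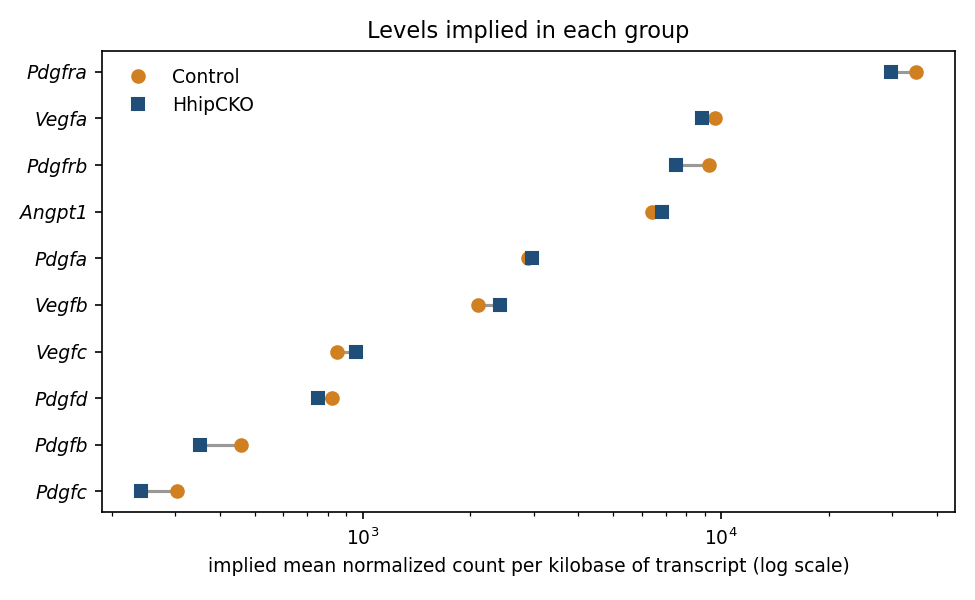
Level of each of the 10 genes in Control (circles) and HhipCKO (squares), as mean normalized counts per kilobase of the longest transcript on a log scale, computed from the mean over all libraries and the fold change. The groups lie close together on every line, from Pdgfra at the top (34911 in Control and 29695 in HhipCKO) to Pdgfc at the bottom (303 and 241), and no error per group is known.

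The PDGF ligands did not differ detectably between the groups. Pdgfa, the ligand of the alpha receptor and the most abundant of the 4 ligands, had implied normalized counts of 5974 in Control and 6120 in HhipCKO. Its log2 fold change was 0.03 ± 0.18 (SE, adjusted p = 0.945, DESeq per the submitters) per the authors' deposited table. That interval reaches from a 1.25-fold lower to a 1.31-fold higher level. Pdgfa transcripts were 7.26-fold above those of Pdgfb, 10.8-fold above Pdgfc and 3.73-fold above Pdgfd per kilobase. On chromosome 5 the gene (ENSMUSG00000025856, minus strand, 138976014 to 138997370 on GRCm38) overlaps the antisense gene 6330403L08Rik, whose mean count was 46.8% of that of Pdgfa. No strand setting is stated, so reads from the shared stretch cannot be told apart. The antisense gene had a log2 fold change of -0.05 ± 0.16 (SE) by the authors' deposited table.

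Pdgfb, the endothelial and platelet ligand that recruits pericytes, had implied normalized counts of 1347 in Control and 1035 in HhipCKO. Its log2 fold change of -0.38 ± 0.37 (SE, adjusted p = 0.603) per the authors' deposited table was the lowest of the 10 and also the least precise. The 95% interval spans a 2.15-fold lower to a 1.27-fold higher level. Bulk libraries cannot tell fewer cells of a type from less RNA per cell, and Pdgfb is a gene of cells that the sort was meant to remove. The endothelial marker list measured here had a median log2 fold change of -0.22, with 8 of 13 tested genes negative and none called. Its part in the value of Pdgfb was not tested.

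The latent ligands Pdgfc and Pdgfd stood at 272 and 788 counts per kilobase. Pdgfc had implied normalized counts of 1068 in Control and 850 in HhipCKO, and Pdgfd of 2579 and 2353. Their log2 fold changes according to the authors' deposited table were -0.33 ± 0.21 and -0.13 ± 0.23 (SE), with adjusted p of 0.355 and 0.795. For Pdgfc the interval allows a 1.66-fold lower level, and for Pdgfd a log2 value down to -0.58. Plat, the tissue plasminogen activator that cuts PDGF-C, was abundant at 7549 counts per kilobase and its log2 value was -0.18 ± 0.19 (SE, adjusted p = 0.630) according to the authors' deposited table.

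Both PDGF receptors had negative values that did not pass. Pdgfra (ENSMUSG00000029231, chromosome 5, plus strand, 75152292 to 75198215), the receptor that marks lung fibroblasts, had implied normalized counts of 238584 in Control and 202936 in HhipCKO. Pdgfrb (ENSMUSG00000024620, chromosome 18), the receptor of pericytes and smooth muscle, had 50110 and 40559. The authors' deposited table gives a log2 value of -0.23 ± 0.19 (SE, adjusted p = 0.512) for Pdgfra and of -0.31 ± 0.17 (SE, adjusted p = 0.302) for Pdgfrb. Pdgfrb had the smallest p of the 10, at 0.0801 before adjustment. The intervals allow a level up to 1.52-fold lower for Pdgfra and up to 1.57-fold lower for Pdgfrb. Pdgfra was 3.86-fold more abundant than Pdgfrb per kilobase. Both transcripts are long, 6.83 and 5.42 kilobases, and long transcripts tended to negative values over the whole table, as described below.

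The VEGF ligands diverged in sign without passing. Vegfa (ENSMUSG00000023951, chromosome 17, minus strand, 46016993 to 46032369), the main ligand of the endothelial receptor Kdr and a hypoxia target, had implied normalized counts of 33237 in Control and 30436 in HhipCKO. Vegfb, a ligand of Flt1, had 2688 and 3093. Vegfc, the lymphatic ligand of Flt4, had 2083 and 2341. The 3 log2 fold changes per the authors' deposited table were -0.13 ± 0.24, 0.20 ± 0.14 and 0.17 ± 0.16 (SE), with adjusted p of 0.813, 0.421 and 0.590. For Vegfb, the most precisely measured of the 10 genes, the interval runs from a 1.05-fold lower to a 1.39-fold higher level. The value of Vegfa leaves room for a 1.51-fold lower or a 1.27-fold higher level.

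Angpt1 (ENSMUSG00000022309, chromosome 15, minus strand, 42424723 to 42676977) encodes the ligand that stabilises vessels through the receptor Tek. Its implied normalized counts were 27327 in Control and 29216 in HhipCKO. The authors' deposited table has its log2 fold change at 0.10 ± 0.24 (SE, adjusted p = 0.864), with an interval from a 1.30-fold lower to a 1.48-fold higher level. Angpt2, which often opposes Angpt1 at Tek, had the largest positive value among the angiopoietins, at 0.43 ± 0.15 (SE) by the authors' deposited table, and did not pass (adjusted p = 0.0595). Angpt1 was 3.35-fold more abundant than Angpt2 per kilobase.

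**Figure D2:**
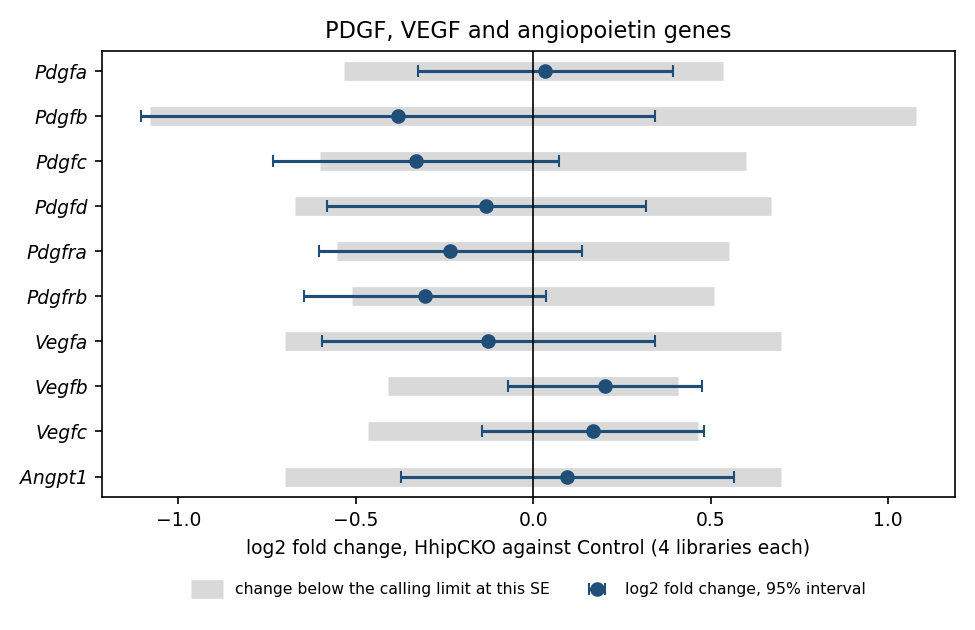
Log2 fold change of HhipCKO against Control for each of the 10 genes, with its 95% interval. Grey bars show the changes that could not have been called at that gene's SE. Every interval includes 0, and every point lies inside its grey bar, which is widest for Pdgfb (2.11-fold) and narrowest for Vegfb (1.33-fold).

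Over the 10 genes 4 log2 fold changes were above 0 and 6 below it. Their median was -0.13, while that of all tested genes was 0.02. Of the 6 PDGF ligands and receptors 5 were negative, and of the 4 vascular factors 3 were positive. The median size regardless of sign was 0.19 for these genes and 0.21 for all tested genes. For 9 of the 10 the 95% interval excluded a 2-fold change in either direction, which was so for 75.3% of all tested genes. Pdgfb was the exception.

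The 10 values were less precise than those of genes of similar abundance. Each SE was above the median SE of the 500 genes nearest in mean count, standing above 55.2% of them for Vegfb and above 90.2% for Pdgfb. At these errors the smallest change that could have been called lay between 1.33-fold for Vegfb and 2.11-fold for Pdgfb, and it was 1.62-fold for Vegfa and for Angpt1. The SE corresponds to a coefficient of variation between libraries of a group of about 13.6% for Vegfb to 36.1% for Pdgfb. The median of that coefficient was 19.2% for the 10 genes and 18.6% for all tested genes, which include many of lower count.

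**Figure D3:**
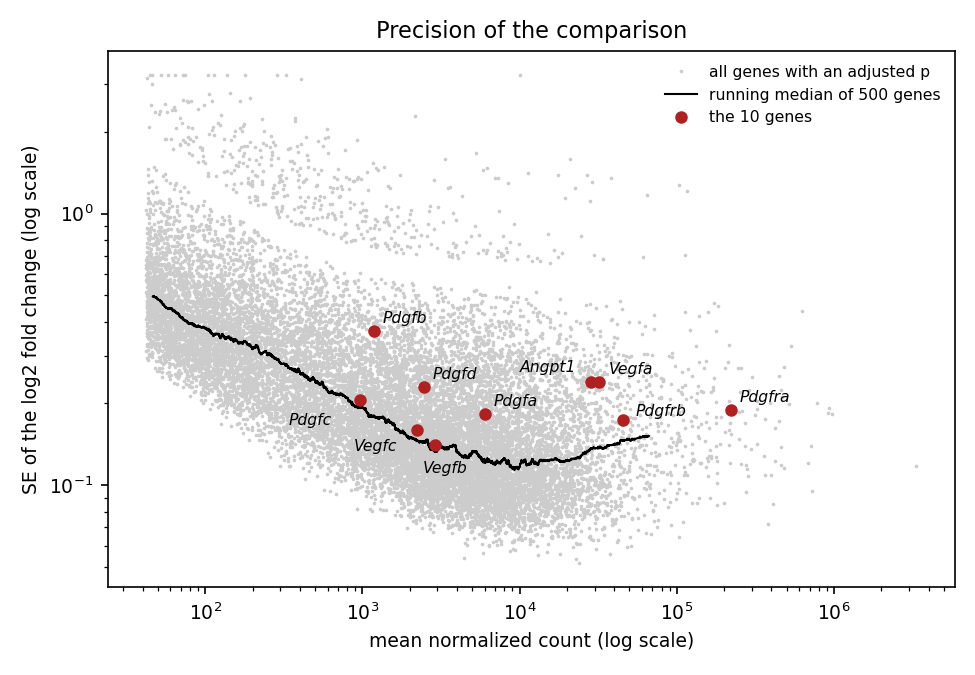
SE of the log2 fold change against mean normalized count, both on log scales, for all genes with an adjusted p (grey), the running median of 500 genes (line) and the 10 genes (red). All 10 lie above the running median of their neighbours, Pdgfb farthest from it.

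The 8 partner lists also cover other vascular signals of mesenchyme, and not all of their genes act on the PDGF, VEGF or angiopoietin signals themselves. Of the 116 tested genes 7 fell, none rose and 109 did not pass, so 6.03% were called, beside 6.98% of all tested genes. The share that fell, 6.03%, compares with 3.92% of all tested genes. Negative values outnumbered positive ones by 85 to 31, and the median log2 fold change was -0.14. Over all tested genes 8265 were negative and 9204 positive, with a median of 0.02. The partner genes had a median length of 4.29 kilobases, against 3.07 for all tested genes. With the length trend removed the medians were -0.11 and 0.005. Of the 116 genes 28 had an unadjusted p under 0.05, beside 21.8% of all tested genes. With Wald statistics divided by their robust SD none of the 7 passed, and with Benjamini-Yekutieli adjustment Lrp1, Adamts3 and Arnt did. Over all genes 18 and 379 calls were left under these settings.

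Among 14 tested genes that bind or process PDGF ligands and receptors, 2 fell and 12 did not pass, with a median of -0.24. Lrp1, a large endocytic receptor that associates with Pdgfrb, had implied normalized counts of 569526 in Control and 396307 in HhipCKO. It was 1.44-fold lower (95% interval 1.23 to 1.68), with a log2 value of -0.52 ± 0.12 (SE, adjusted p = 0.000635) per the authors' deposited table. Its value was -0.16 once the length trend was removed, and it then did not pass. Furin, the protease that cuts the precursors of PDGF-A, PDGF-B and VEGF-C, was 1.20-fold lower (1.06 to 1.35), at -0.26 ± 0.09 (SE, adjusted p = 0.0445) according to the authors' deposited table. The trend's removal also ended the call of Furin, at -0.14. Without the authors' filter on low counts Furin did not pass (adjusted p = 0.0756).

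The signalling chain below the receptors showed no call. None of 17 tested transducers, among them Plcg1, Pik3r1, Shc1 and Ptpn11, passed an adjusted p of 0.05, 4 had an unadjusted p under 0.05, and the median was -0.07 (Wald test of the authors' deposited table). None of 15 feedback genes of ERK signalling passed either, with 2 at an unadjusted p under 0.05 and a median of -0.16. Of these, Spry1 and Errfi1, inhibitors of receptor tyrosine kinase signalling, stood at 0.35 ± 0.14 and -0.90 ± 0.37 (SE) per the authors' deposited table, both with an adjusted p of 0.118.

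VEGF receptors and the other VEGF ligands had no call among 7 tested genes, no unadjusted p under 0.05 and a median of -0.05. The endothelial receptors Flt1, Kdr and Flt4 had log2 fold changes of -0.27 ± 0.28, -0.23 ± 0.34 and -0.20 ± 0.38 (SE) per the authors' deposited table. Nrp1 and Nrp2, co-receptors that mesenchymal cells also carry, stood at -0.05 ± 0.15 and 0.02 ± 0.24 (SE). Pgf, a further ligand of Flt1, had 0.40 ± 0.23 and Vegfd, a ligand of Flt4, had 0.23 ± 0.23 (SE) by the authors' deposited table. Vegfd was abundant, at 12641 counts per kilobase, 1.37-fold above Vegfa, although per kilobase of coding sequence the ratio was 0.891.

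Svep1 was the 1 call among 9 angiopoietin receptors and relatives. It encodes a large matrix protein that takes part in lymphatic vessel development and was 1.36-fold lower (95% interval 1.11 to 1.66), at -0.44 ± 0.15 (SE, adjusted p = 0.0457) per the authors' deposited table. Its value was -0.14 once the length trend was removed, and it then did not pass. The call was also lost when the p-values of the authors' deposited table were adjusted without the filter on low counts (adjusted p = 0.0775). The receptors Tek and Tie1 had log2 fold changes of 0.05 ± 0.34 and -0.77 ± 0.49 (SE), and Angpt4 had -0.15 ± 0.29 (SE), none past the threshold.

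Adamts3 had the smallest adjusted p of all the partner genes. It encodes the protease that, held by the cofactor Ccbe1, cuts VEGF-C into its active form. Implied normalized counts were 1239 in Control and 723 in HhipCKO. The gene was 1.71-fold lower (95% interval 1.38 to 2.13), at -0.78 ± 0.16 (SE, adjusted p = 0.000244) according to the authors' deposited table. Among 25 other vascular signals of mesenchyme no other gene passed, and the median was -0.16. Ccbe1 stood at -0.27 ± 0.25 (SE, adjusted p = 0.592) according to the authors' deposited table. Vegfc, the substrate, had a positive value, as given above.

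Regulators of the hypoxia response, which controls Vegfa, included 2 calls among 10 tested genes, with a median of -0.32. Of the 10, 5 had an unadjusted p under 0.05, beside 21.8% of all tested genes. Arnt, the partner subunit of the hypoxia-inducible factors, had implied normalized counts of 10450.1 in Control and 8256 in HhipCKO. It was 1.27-fold lower (95% interval 1.15 to 1.40), at -0.34 ± 0.07 (SE, adjusted p = 0.000515) according to the authors' deposited table. Hif1an, a hydroxylase that inhibits those factors, was 1.24-fold lower (1.09 to 1.41), at -0.31 ± 0.10 (SE, adjusted p = 0.0283 as given by the authors' deposited table), and did not pass at -0.17 with the length trend removed. The factors Hif1a and Epas1 stood at 0.04 ± 0.13 and -0.46 ± 0.17 (SE) per the authors' deposited table and did not pass, Epas1 with an adjusted p of 0.0845.

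Of 20 tested hypoxia target genes 1 fell and 19 did not pass, with a median of -0.05. An unadjusted p under 0.05 was reached by 4 of the 20, beside 21.8% of all tested genes. The fallen gene was P4ha1, a collagen prolyl hydroxylase, with implied normalized counts of 33658 in Control and 18410 in HhipCKO and a log2 value of -0.87 ± 0.27 (SE, adjusted p = 0.0277) by the authors' deposited table. Removing the trend on length left it at -0.85 and ended its call. The glycolytic targets Pgk1 and Ldha had values of 0.01 ± 0.09 and -0.02 ± 0.11 (SE) in that table. These intervals are among the narrowest of the list, and neither gene passed. Other genes of the list lay farther from 0. Hk2 and Slc2a1 stood at -0.94 ± 0.42 and -0.44 ± 0.22, and Pdk1 at 0.42 ± 0.20 (SE), and none of these passed.

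**Figure D4:**
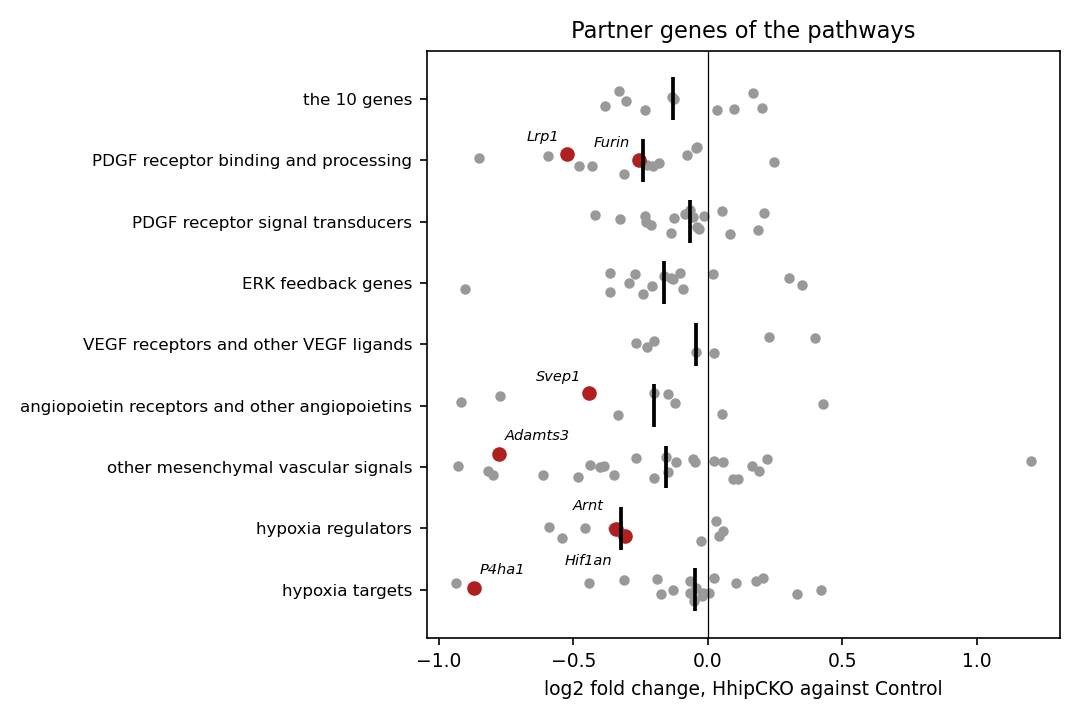
Log2 fold change of HhipCKO against Control for the 10 genes (top) and for each tested gene of the 8 partner lists, 1 point per gene, with the median of each list as a black line. Red points with a name passed an adjusted p of 0.05; all 7 lie left of 0. Points are spread vertically to keep them apart.

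Fold changes fell with transcript length over the whole table. The median log2 fold change was 0.18 in the fifth of tested genes with the shortest transcripts (up to 1.57 kilobases) and -0.17 in the fifth with the longest (at least 4.97 kilobases). In the latter 416 genes fell and 31 rose. A smooth trend on length gave -0.16 at the length of Pdgfra and -0.10 at that of Pdgfrb. With the trend removed their log2 values were -0.07 and -0.20, and Vegfb moved from 0.20 to 0.06. Pdgfa turned from 0.03 to -0.07, Pdgfb moved from -0.38 to -0.42, and Pdgfc stayed at -0.33. Wald tests were recomputed on the values less the trend, with the SEs of the authors' deposited table. Of the 7 partner calls 2 remained, namely Adamts3 at -0.76 and Arnt at -0.30, for which the authors' deposited table less the trend gave adjusted p = 0.000620 and 0.00502. Lrp1, Svep1, Furin and Hif1an, with transcripts of 14.9, 11.6, 5.74 and 6.19 kilobases, no longer passed, at the values given above. P4ha1 kept a value of -0.85, and the authors' deposited table less the trend gave adjusted p = 0.0565, above the threshold.

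**Figure D5:**
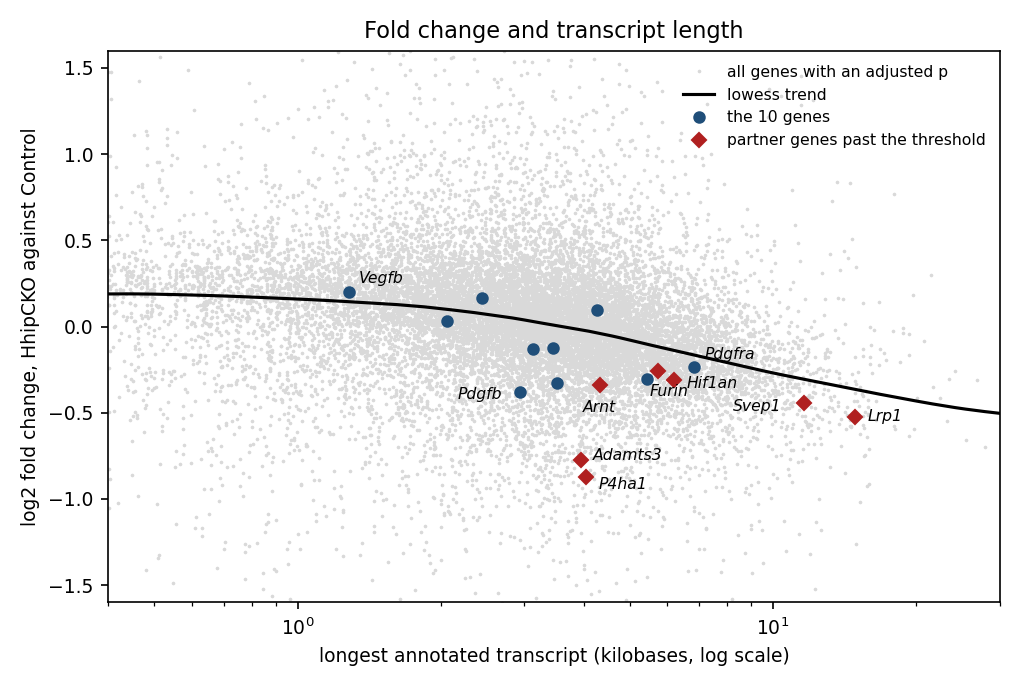
Log2 fold change against the length of the longest annotated transcript (log scale) for all genes with an adjusted p (grey), the 10 genes (blue circles) and the 7 partner genes past the threshold (red diamonds), with the lowess trend as a line. Axes are limited to the range that holds the named genes; Lrp1 and Svep1 lie near the falling end of the trend, while Adamts3, P4ha1 and Arnt lie below it.

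Markers of the cells that carry or receive these signals were measured beside them. Mesenchymal markers were the most abundant, with a median of 46096 counts per kilobase over 10 genes, no call and a median log2 fold change of -0.03. Endothelial markers had a median of 237 counts per kilobase. Their implied summed counts were 40141 in Control and 37672 in HhipCKO over 15 genes, none listed at 0. The most abundant of them, Eng, had a mean normalized count of 15257 and stood at -0.19 ± 0.13 (SE) in the authors' deposited table. Over the 13 tested genes the median was -0.22, with 8 negative and 5 positive values. Pecam1, which encodes the sorted marker CD31, stood at -0.40 ± 0.25 and Cdh5 at -0.73 ± 0.37 (SE) per the authors' deposited table, neither past the threshold. All 7 lymphatic endothelial markers were negative, with a median of -0.20 and no call. Leukocyte markers went the other way. Of 10 tested, 9 were positive with a median of 0.74 and no call, 1 of them at an unadjusted p under 0.05, and implied summed counts were 25541 in Control and 62678 in HhipCKO. Lyz2 alone, at 1.53 ± 1.35 (SE) per the authors' deposited table, made up 19472 and 56344 of these sums. Its value and SE were close to those of the surfactant genes given below, and which cells its transcripts came from was not tested. The other 9 genes summed to 6069 in Control and 6334 in HhipCKO, with 8 positive values and a median of 0.73. Csf1r, the 1 negative gene at -0.59 ± 0.39 (SE) in the same table, made up 3689 and 2445 of the sums of these 9. Ptprc, which encodes CD45, stood at 0.54 ± 0.55 (SE) according to the authors' deposited table. Epithelial markers, including genes of cells that make PDGF-A and VEGF-A, had implied sums of 168907 and 298356 over 12 genes, a median of 0.12 and no call. The surfactant genes Sftpc, Sftpb and Sftpa1, at 1.41 ± 1.27, 1.17 ± 1.30 and 1.53 ± 1.39 (SE) per the authors' deposited table, made up 88096 and 230634 of these sums. The other 9 genes summed to 80811 in Control and 67722 in HhipCKO, 4 with positive and 5 with negative values. Epcam stood at 0.59 ± 0.48 (SE) there. Platelet markers had sums of 4851 and 4846 over 6 genes. Their median log2 fold change was 0.37, with 4 positive and 2 negative values and no call. The most abundant of the 6, Itgb3, had a mean normalized count of 3300 and stood at -0.14 ± 0.26 (SE) in the authors' deposited table. The part of these cells in the values of the 10 genes was not tested.

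Markers of the mesenchymal cells that carry the receptors differed in part. Of 14 pericyte markers 13 were negative, with a median of -0.32. Among them Trpc6, a cation channel gene, fell by 0.90 on the log2 scale, and Kcnj8, a potassium channel gene, was the 1 that rose, at 0.53 ± 0.13 (SE) according to the authors' deposited table. The pericyte genes Rgs5 and Cspg4 stood at -0.33 ± 0.43 and -0.45 ± 0.25 (SE), and did not pass. In smooth muscle, Acta2 stood at 0.17 ± 0.33 and the coactivator Myocd fell, at -1.22 ± 0.31 (SE), 1 call among 10 markers. Alveolar fibroblast markers had no call among 12 and a median of 0.03, with Tcf21 at 0.52 ± 0.28 (SE) per the authors' deposited table. Of 11 adventitial markers Ly6a rose, at 1.21 ± 0.20 (SE), and 10 did not pass. Mesothelial markers had no call among 7 and a median of -0.09. Of 7 tested chondrocyte markers 4 fell, Acan, Hapln1, Col9a1 and Comp, and the median was -2.18. The share called was 57.1% of chondrocyte, 14.3% of pericyte, 10% of smooth muscle and 9.09% of adventitial markers, beside 6.98% of all tested genes. The part of any change in mesenchymal makeup in the values of Pdgfra and Pdgfrb was not tested.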

How the data were processed

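Lung mesenchyme of 4 HhipCKO and 4 Control libraries was sequenced, and the submitters' processing notes name GRCm38 (mm10), STAR, FastQC and DESeq without versions. Annotation, counting tool and strand setting are not given in the sources used here. Per the file headers, the authors deposited 1 table of 31607 genes with a mean normalized count (signal), a log2 fold change with its SE, the Wald statistic as a score, raw and adjusted p-value columns, and 0 columns of values per sample. Depth per library is unknown. The count tests foreseen for values per sample could not be run, so the authors' Wald test in DESeq served, at an adjusted p of 0.05.

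Intervals are normal 95% ones. Group levels were computed from the mean and the fold change with equal weight for both groups, and the spread between libraries from the SE under a negative binomial variance. The smallest callable change is the SE times 2.92, the lowest Wald size among called genes. Lengths, coordinates and overlaps come from GENCODE M21 on GRCm38 (31555 identifiers matched), promoters from RefSeq on GRCm38.p6. The length trend is a lowess curve with a span of 0.3 (Python 3.11.15, statsmodels 0.14.6). Adjustment and trend steps were run on fold changes simulated from the deposited SEs. Those draws were not set to the wider spread of the Wald statistics here (robust SD 1.53). They therefore do not show how well calibrated the calls in these data are. The 10 genes and the 20 partner and marker lists (242 entries, 3 matched through another symbol, 1 not found) were chosen with earlier results of these data known. Named are the 10 genes, up to 4 called genes per list, the receptors and their other ligands, and Pecam1, Ptprc, Epcam, Cdh5, Rgs5, Cspg4, Acta2 and Tcf21. Other genes given with values, such as Plat, Ccbe1, Hif1a, Epas1, Spry1, Errfi1, Pgk1, Ldha, Lyz2, Sftpc, Sftpb and Sftpa1, lie outside that rule and were chosen after their values were seen. The same holds for Hk2, Slc2a1, Pdk1, Csf1r, Eng and Itgb3. A repeated symbol was taken at its highest mean count.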

Additional observations from a re-analysis of the deposited data

How the results depend on the processing

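None of the 10 genes passed an adjusted p of 0.05 under any of 6 alternatives: no filter, a mean count of at least 500, median-centred fold changes, the length trend removed, Wald statistics divided by their robust SD of 1.53, and Benjamini-Yekutieli adjustment. The lowest adjusted p among these 60 values was 0.267. Pdgfa alone changed sign, to -0.066 with the length trend removed. The median of the 10 lay between -0.15 and -0.10. Partner genes past the threshold numbered 7 as deposited, 2 with the length trend removed, 0 with the robust SD and 3 with Benjamini-Yekutieli. Over all genes the counts were 1219, 542, 18 and 379. Other alternatives kept both counts within 1.5 times. Pdgfra over Pdgfrb was 3.86 per kilobase and 4.93 per coding kilobase. No paired analysis was possible because the table holds no values per sample, and replicates could not be left out in turn for the same reason. Precision rests on the authors' fit alone.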

Other observations

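The receptors of the vascular ligands differed widely in level in these sorted cells. Per kilobase of the longest transcript, mean normalized counts were 1148 for Tek and 1059 for Kdr, the receptors of angiopoietin 1 and VEGF-A. Flt1, Flt4 and Tie1 stood at 75.7, 75.4 and 46.5 on the same scale. The endothelial adhesion genes Pecam1, Cdh5 and Esam had 237, 117 and 2135, so Kdr and Tek lay above Pecam1 and Cdh5 and below Esam, while Flt1, Flt4 and Tie1 lay below all 3 of them. These genes were set side by side after their values were seen.

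Some partner genes had errors far above those of genes with a similar mean count. Fgf2, a fibroblast growth factor, had a mean normalized count of 8394 and a log2 fold change of -0.35 ± 1.29 (SE) in the authors' deposited table, where the 500 genes nearest in mean count had a median SE of 0.12. Crk, an adaptor below the PDGF receptors, had -0.07 ± 0.65 (SE) at a mean normalized count of 15696, and Thbs4, a thrombospondin, had -0.48 ± 1.24 (SE) at 3519.9 in the same table. Their SEs exceeded those of 99.8%, 99.0% and 99.4% of the nearest genes. A change below 13.7-fold in Fgf2 or 3.77-fold in Crk could not have been called at these errors. These genes too were chosen after their values were seen, and values per library were not analysed here.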
